A study of Mus musculus with 18 samples.

Results

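The 30 positions described here are the cytosines of the mOrangeSTOP reporter that carry the AID hotspot core but are followed by a purine. On the strand that holds the cytosine, each has A or T at the second base before it, A or G at the base before it, and A or G at the base after it. On the coding strand, 22 of them read as C and 8 as G. They were chosen from the sequence alone, out of 674 positions (426 of them C:G base pairs) that had at least 1000 base calls in every library. The sequence rule held for 31 positions, and position 702 was left out because its lowest library had 758 calls. The position nearest above that limit was 705, with 1029 calls in its lowest library. Substitutions had been counted in 18 libraries made from the genomic DNA of mouse fibroblasts of the NIH-3T3 line, all of which carried the reporter.

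The libraries formed 6 groups of 3. The second vector carried AID-ER, in which AID is fused to an estrogen receptor domain, or the catalytically inactive form AIDE58Q-ER, written AID-E58Q below. The third vector carried Ugi, UNG or no gene, the last being called Control. All cells were selected with puromycin or hygromycin, and OHT, which binds the receptor domain, was present at 1 µM during the 11 days of culture. The reporter was amplified for 25 cycles and the sheared, adapter-ligated product for 10 more. All 3 genes came from retroviral vectors, and the cells are not B cells, in which AID normally acts. The labels number the libraries by experiment, 1 to 3, without saying if each experiment was a transduction of its own. The spread behind every p-value is that between libraries, part of which may be technical.

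AID deaminates cytosine to uracil and starts somatic hypermutation and class switching of antibody genes in B cells. If the uracil is copied before repair, a C>T transition results, read as G>A where the cytosine lay on the other strand. UNG, the uracil DNA glycosylase, removes the uracil, and bypass of the empty site can place any base opposite it, which gives C>G and C>A transversions as well as C>T. Ugi is a phage protein that binds and blocks UNG. AID prefers cytosines after a W-R pair (W for A or T, R for a purine), and a pyrimidine after the cytosine completes the classical WRCY hotspot. The purine-followed cores lack that last feature and occur either before A or before G, the second being a CpG. The comparisons ask how often AID changed these cytosines and how blocking or adding UNG moved the number and the kind of the changes.

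The sites on which the results turn are shown 5′ to 3′ on the coding strand, each with 6 bases on either side of the counted base, and the 4 bases of the core and following purine in capitals. Position 1 is the first base of the reporter's coding sequence. Where the counted base is a G, the capitals read as the reverse complement of the core. The first 4 carry the same core and following base and had the largest Ugi changes.
Position 534: ccacTACAcctcc
Position 558: caccTACAaggcc
Position 639: ggacTACAccatc
Position 705: gctgTACAagtaa
The next is the only member with the core AGCA and lies 1 base from a WRCY position.
Position 238: ctgaAGCAccccg
The next pair are the G and the C of a single palindromic site, so the motif is read on either strand.
Position 354: ctcccTGCAggac
Position 355: tcccTGCAggacg
The last 6 passed the test for a transversion in at least 1 arm.
Position 657: acagTACGaacgc
Position 52: ttcaTGCGcttca
Position 64: aaggTGCGcatgg
Position 65: aggtgCGCAtgga
Position 129: ccccTACGagggc
Position 418: ggcccCGTAatgc

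Of the 30 cores, 11 were TAC, 10 TGC, 5 AGC and 4 AAC. An A followed in 15 and a G in the other 15. The most frequent 4-base forms were TACA with 7 and TGCA with 6, the latter being both strands of 3 palindromes. The members 52 and 53, 64 and 65, 354 and 355, 423 and 424, and 576 and 577 are 5 pairs of neighbours, so the 30 positions are not independent of each other. Read from the codon alone, a transition would leave the amino acid as it is at 13 members and change it at 13. At the other 4 (355, 424, 577 and 652) it would make a stop codon. The reporter already carries an in-frame stop codon that starts at position 229, and those 4 lie after it. Whether codons after that stop were translated was not tested. The classes thus describe the codon and not an effect on the protein. The bases lie in codons 18 to 235 of the reporter. Of the members, 9 lay within 3 bases of a WRCY cytosine or its mirror.

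The deposited counts gave 24915866 to 95011754 calls per library, and median coverage over the table ran from 37304 to 141205 calls. At the members it was deep enough that 26 of 30 had at least 10000 calls in every library, while 64, 65 and 705 fell below 5000 in at least 1. In 9 libraries the highest reads at any position were 499049 to 499939. At position 52 those libraries held 492168 to 498204 calls, close to that height, so the calls at 52 and its neighbour 53 may be capped. Frequencies are given as substitutions per 10000 calls, and 3 values in a row are those of experiments 1, 2 and 3. Over the 540 member values of each kind, the median half-width of the 95% Wilson interval was 1.83 for transitions, 0.783 for C>G/G>C and 0.898 for C>A/G>T. Such intervals cover counting error only, since PCR reads without molecular identifiers are not independent molecules. Adjusted p-values are from edgeR's quasi-likelihood test on all 18 libraries, with Benjamini-Hochberg adjustment over all 674 positions for transitions and all 426 C:G positions for each kind of transversion, and a threshold of 0.05. "Passed" and "rose" below refer to that threshold. The 674 positions include A:T pairs, where the transitions counted are A>G and T>C. Shares and medians of transitions over all positions are thus not those of C:G positions alone.

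With UNG blocked by Ugi, transitions rose at most of the purine-followed cores. The test passed at 24 of 30 members, against 22.1% of all positions. The 3 AID libraries all lay above the 3 AID-E58Q libraries at 25 of 30 members, against 22.3% of all positions. The median log2 fold change over the members was 3.22, against 0.68 over all positions tested. Averaged over the members, transitions reached 22.9, 17.3 and 99.4 per 10000 with AID against 3.56, 3.88 and 5.81 with AID-E58Q. Experiment 3 was the highest AID library at all 30 members, and the ratio of AID to AID-E58Q ran from 4.46 to 17.1 between the experiments.

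The TACA sites made up the top of the list. Position 534 is the last base of its codon, and its transition would not change the amino acid that the codon encodes. It had 53.1, 31.7 and 235 transitions per 10000 with AID against 0.98, 1.48 and 2.06 with AID-E58Q. All 3 AID libraries lay above all 3 controls, and the edgeR test gave the largest change of any member (log2 fold change 6.08, SE 0.88, adjusted p = 2.03e-04). Position 705 had 42.7, 21.9 and 304 against 6.99, 0 and 2.47, at the member with the lowest calls in any library (log2 fold change 5.37, SE 1.19, adjusted p = 0.00273 by edgeR). At position 639 the values were 35.7, 21.3 and 115 against 0, 1.23 and 2.99 (log2 fold change 5.16, SE 1.05, adjusted p = 0.00159 by edgeR). All 7 TACA members passed. At position 558 they were 55.8, 12.04 and 138 against 1.89, 2.82 and 1.52 (log2 fold change 5.05, SE 1.11, adjusted p = 0.00261 by edgeR). In each of these sites the groups were apart, and experiment 2 gave the lowest AID value. The other TACA members (375, 465 and 594) had log2 fold changes of 4.77, 4.43 and 3.72. At position 238 the AID libraries held 43.9, 78.6 and 228 against 3.57, 3.02 and 8.28 (log2 fold change 4.54, SE 0.84, adjusted p = 9.81e-04 by edgeR).

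By core, the test passed at 11 of 11 TAC, 4 of 5 AGC, 7 of 10 TGC and 2 of 4 AAC members. By following base, it passed at 15 of 15 members before A and 9 of 15 before G. The 6 members that missed it were 52, 64, 84, 388, 460 and 630, all of them before G, with log2 fold changes from 0.81 to 3.20, while those that passed ran from 2.38 to 6.08. At position 84 the AID values were 2.89, 2.41 and 12.4 against 2.098, 4.02 and 3.37, and the groups overlapped. At position 52 they were 21.8, 16.4 and 90.2 against 24.7, 20.6 and 28.01. Position 52 also had the highest background of the set, since its 9 AID-E58Q libraries held 19.01 to 28.01 transitions per 10000. At position 64 the values were 8.42, 2.499 and 142 against 0, 0 and 9.42, from few calls.

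The Ugi count rested on single libraries in part. It was 14 without the AID library of experiment 3, 12 when only the 2 Ugi groups entered the fit, and 0 when experiment 1 was left out. With experiment 1 left out and the experiment number kept as a block, 26 members passed, a setting chosen after the data were seen. With the block and all libraries 28 passed, against 30.9% of all positions.

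**Figure D1:**
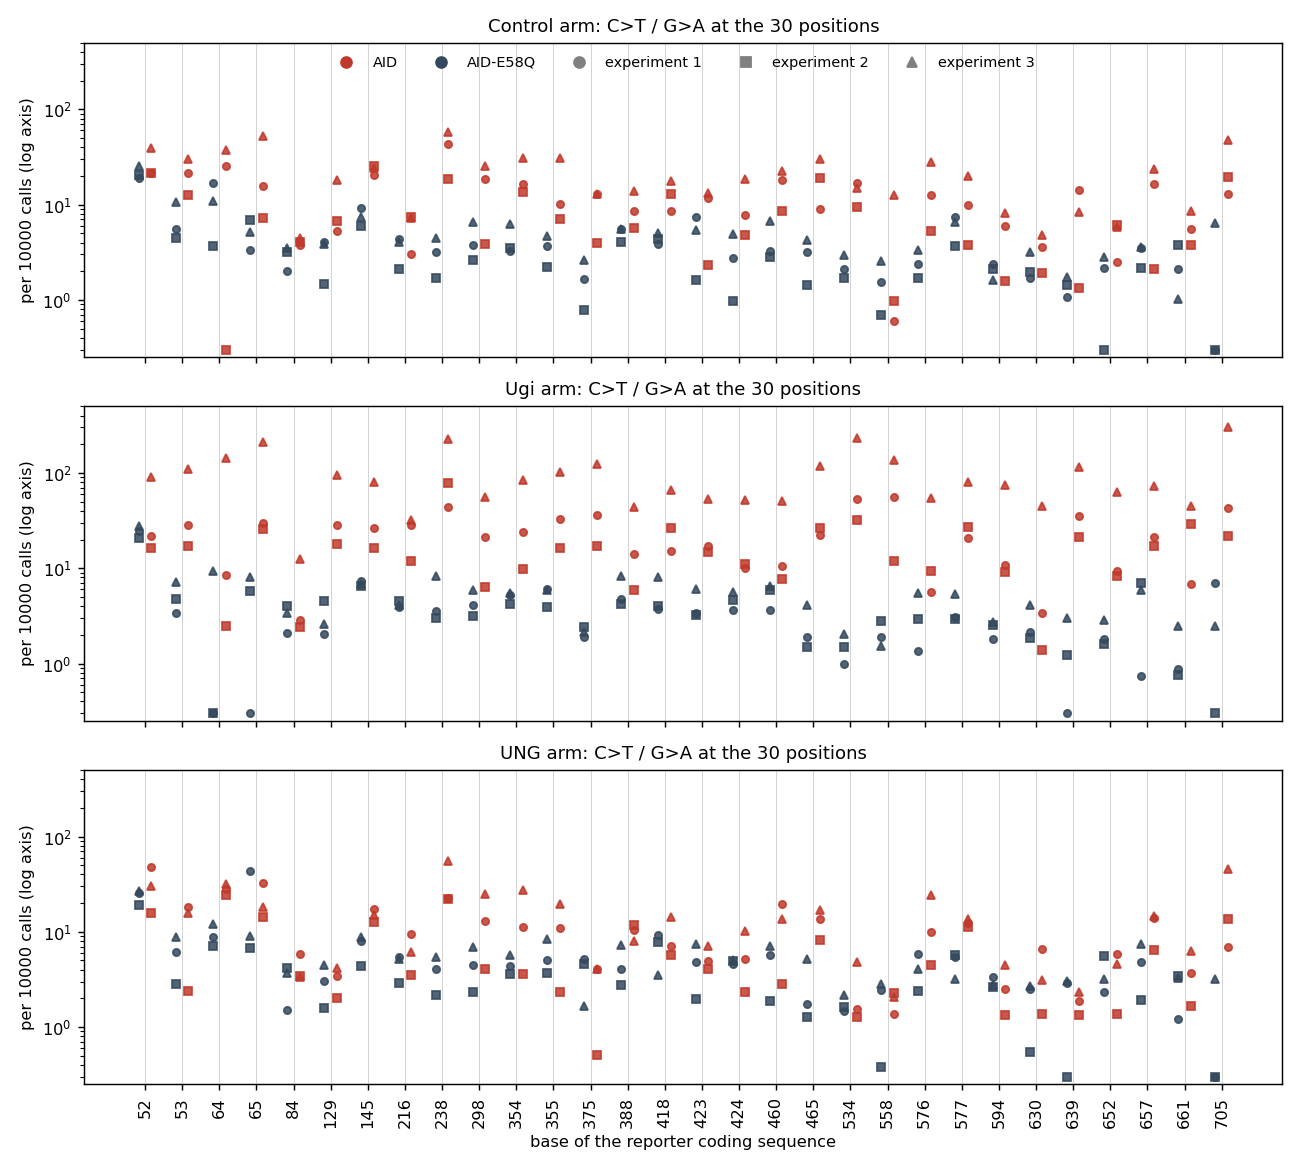
Transitions at each of the 30 positions, per 10000 calls on a log axis, in the 3 arms. Points are single libraries, red for AID and dark for AID-E58Q, with the marker giving the experiment. Values of 0 are drawn at 0.3. In the Ugi arm the AID points of 25 positions lie above all the AID-E58Q points, in the Control arm those of 17 and in the UNG arm those of 7.

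With the empty vector, the mean transition frequency of the members with AID was lower than with Ugi in each experiment. The test passed at 1 of 30 members, against 2.52% of all positions. The AID libraries were apart from AID-E58Q at 17 of 30, against 12.8% of all positions. The member means were 12.8, 8.02 and 22.4 per 10000 with AID against 4.41, 3.12 and 5.44 with AID-E58Q, a ratio of 2.57 to 4.11 within the experiments. The member that passed was 238, with 43.6, 18.4 and 58.1 against 3.21, 1.71 and 4.51 (log2 fold change 3.66, SE 0.81, adjusted p = 0.0149 by edgeR). Its 3 AID libraries all lay above its controls, but the call was lost in 5 of 9 fits that left out a library or an experiment, with a highest adjusted p of 0.653 (edgeR): without the AID-E58Q library of experiment 1 or 2, without the AID library of experiment 3, and without experiment 1 or 2. All 30 members had a positive log2 fold change, from 0.35 at position 52 to 3.66 at 238, with a median of 1.66 against 0.27 over all positions. An unadjusted p under 0.05 was reached at 17.

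With the experiment number as a block, 13 members passed in the Control arm, against 9.35% of all positions, and DESeq2 gave 14. The 13 were 53, 145, 238, 298, 354, 355, 375, 424, 460, 465, 534, 576 and 705. Among them, position 145, the G of an AGCG core, had 20.3, 25.2 and 24.4 against 9.25, 5.93 and 7.39, with little spread between its AID libraries. Position 465, the G of a TACA core, had 8.94, 19.1 and 30.4 against 3.22, 1.43 and 4.21. Position 558, among the highest with Ugi, had 0.61, 0.97 and 12.7 against 1.53, 0.700 and 2.57 in the Control arm, so its groups overlapped there.

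With UNG added, transitions at these cores were closer to the inactive enzyme. No member passed by edgeR, where 0% of all positions did, and 7 of 30 were apart against 7.42% of all positions. An unadjusted p under 0.05 was reached at 5 members, and DESeq2 called 2. The member means were 11.7, 6.42 and 15.1 per 10000 with AID against 6.25, 3.67 and 6.02 with AID-E58Q, a ratio of 1.75 to 2.50. The largest difference was again at position 238, with 22.5, 22.1 and 55.3 against 4.08, 2.17 and 5.46. Those groups were apart, but the test missed the threshold (log2 fold change 3.07, SE 0.79, adjusted p = 0.1002 by edgeR). At position 705 the values were 6.88, 13.5 and 45.8 against 0, 0 and 3.196 (log2 fold change 3.16, SE 1.28, adjusted p = 0.654 by edgeR). With the experiment as a block, 3 members passed, against 4.15% of all positions: 238 (edgeR adjusted p = 1.64e-04), 465 (0.00631) and 705 (0.00586).

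The TACA sites that led with Ugi had means within 1 per 10000 of the inactive enzyme with UNG at 534, 558 and 639. Position 534 held 1.54, 1.26 and 4.81 with AID against 1.46, 1.61 and 2.16 with AID-E58Q. At position 639 the values were 1.88, 1.35 and 2.33 against 2.91, 0 and 3.06. At position 558 they were 1.36, 2.28 and 2.06 against 2.47, 0.38 and 2.85. All 3 sites overlapped with their controls. The 4 members with a negative log2 fold change in the UNG arm, 375, 558, 594 and 639, were all TACA. Over the 7 TACA members, transitions with AID averaged 6.71 per 10000 in the UNG arm, 12.5 in the Control arm and 71.7 in the Ugi arm, against 2.31, 2.01 and 2.17 with AID-E58Q. The Ugi mean rests on libraries of 36.7, 19.9 and 159 per 10000, the last being experiment 3. Of those 7, 465 and 705 held 12.96 and 22.1 per 10000 with UNG and AID, and the other 5 held 1.85 to 2.87.

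**Figure D2:**
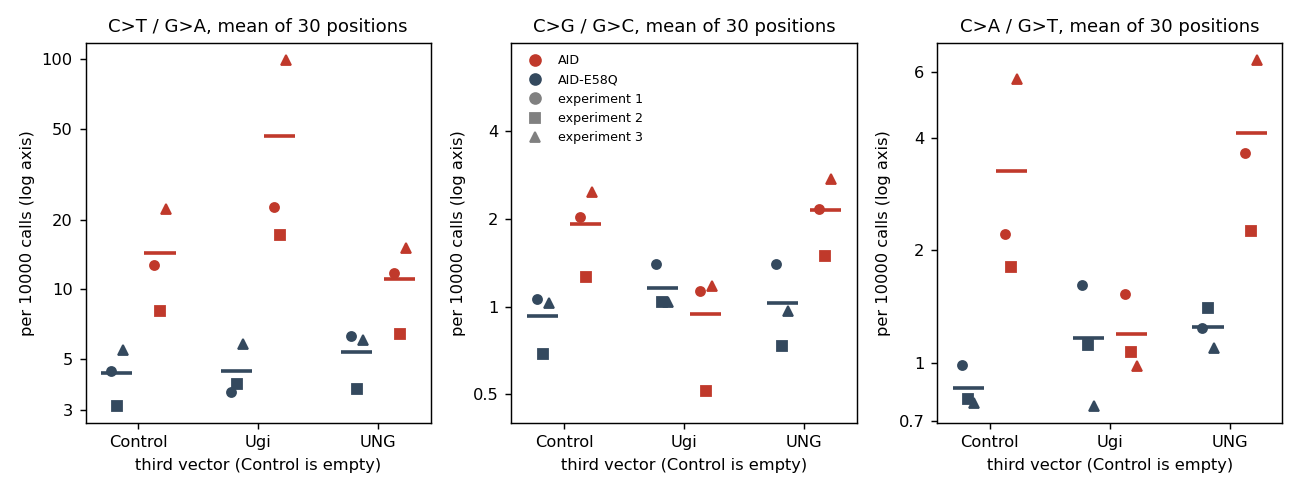
Mean frequency over the 30 positions in each library, per 10000 calls on log axes, for the 3 kinds of substitution. Points are libraries, red for AID and dark for AID-E58Q, and the bars are means of 3. Transitions with AID average 46.5 with Ugi, 14.4 with the empty vector and 11.1 with UNG, while both kinds of transversion with AID lie over the controls in the Control and UNG arms and beside them in the Ugi arm.

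Setting Ugi against Control among the AID libraries, the fitted log2 fold change of transitions was positive at all 30 members, with a median of 1.59 against 0.45 over all positions. Single experiments did not all go that way. At 84, 460 and 630 Ugi was higher in experiment 3 only, as at 460 with 10.6, 7.71 and 50.4 against 18.1, 8.63 and 22.4. At 64 and 576 it was lower in experiment 1, and at 52, 145 and 354 in experiment 2. The edgeR test passed at 0 members and at 0% of all positions, with 16 members at an unadjusted p under 0.05 and 10 called by DESeq2. With the experiment as a block, 14 members passed, against 16.6% of all positions. The largest changes among the 14 were at 558 (log2 fold change 4.05, edgeR adjusted p = 0.00118), 639 (2.80, 0.00493) and 534 (2.54, 0.00168). Leaving out 1 library also moved the count without the block, to 5 without the Ugi AID library of experiment 1 and to 11 without that of experiment 2. The ratio of the member means was 1.79, 2.16 and 4.44 in the 3 experiments.

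UNG against Control went the other way at 23 of 30 members, with a median log2 fold change of -0.49 against -0.08 over all positions. No member passed by edgeR (0% of all positions), 4 reached an unadjusted p of 0.05, and DESeq2 called 0. The lowest was 534 with 1.54, 1.26 and 4.81 against 16.9, 9.34 and 14.8 (log2 fold change -2.43, unadjusted p = 0.00374, adjusted p = 1.00 by edgeR). With the block it passed (log2 fold change -2.67, edgeR adjusted p = 0.0280), the only member to do so against 0.742% of all positions. The 2 tests of whether Ugi or UNG changed the AID effect itself, the interactions with AID-E58Q, passed at 0 members and 0% of all positions each, also by DESeq2 and with the block. At an unadjusted p under 0.05 the Ugi interaction held 7 members and the UNG interaction 1.

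The base before the cytosine divided the members into 15 adenine cores (TAC and AAC) and 15 guanine cores (TGC and AGC). With Ugi and AID they averaged 48.2 and 44.9 transitions per 10000, from 24.9, 16.9 and 102.7 at the adenine and 20.95, 17.7 and 96.02 at the guanine cores, so experiment 3 gave most of both means. With the empty vector the adenine cores held 9.93 and the guanine cores 18.8, and with UNG 6.20 and 15.9. The inactive enzyme gave 2.49 and 6.16 in the Control arm, so the background was also higher at the guanine cores, among them position 52. In medians over positions, the Control AID-E58Q values were 2.27 and 4.84. The ratio of Ugi to Control among AID libraries was 3.07, 2.52 and 6.85 at the adenine cores and 1.20, 1.89 and 3.23 at the guanine cores in experiments 1 to 3. The ratio of UNG to Control was 0.724, 0.535 and 0.609 against 1.01, 0.991 and 0.706. In each experiment the adenine cores thus moved further both ways in ratio, a difference that was not tested. These ratios were taken without subtracting the AID-E58Q background, so they do not compare the changes per 10000.

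**Figure D3:**
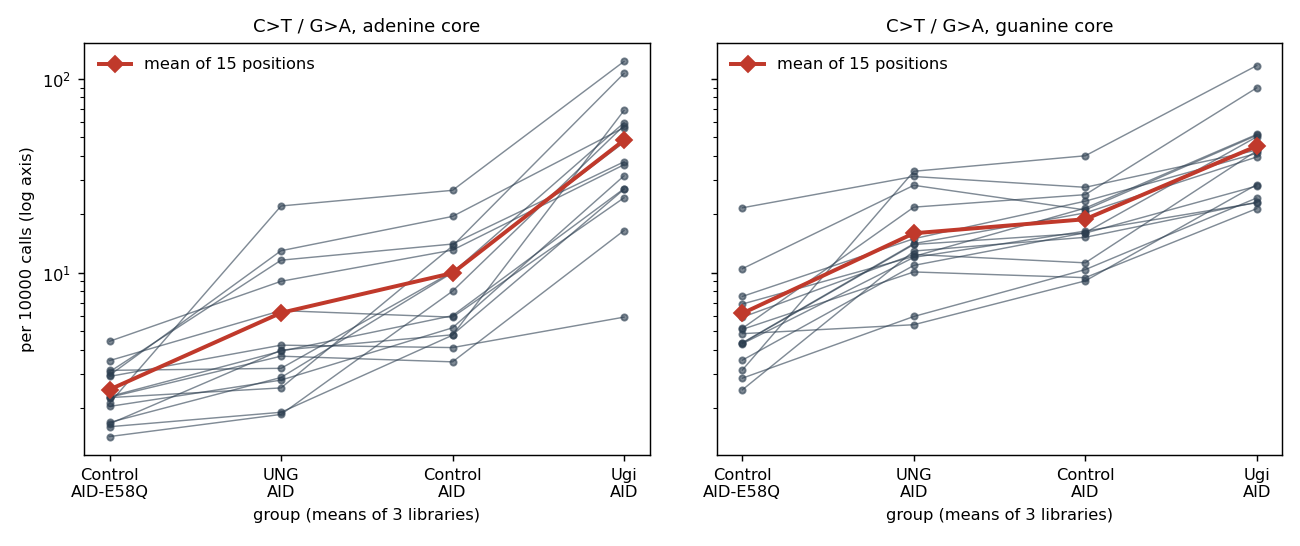
Transitions per 10000 calls on a log axis at the 15 adenine and the 15 guanine cores. Thin lines join the means of 3 libraries of each position across 4 groups, and red diamonds are the means of 15 positions. The adenine cores run from 6.20 with UNG to 48.2 with Ugi, and the guanine cores from 15.9 to 44.9.

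By the following base, transitions with AID averaged 14.3 before A and 14.5 before G in the Control arm, 56.9 and 36.2 in the Ugi arm (the first higher in each experiment), and 9.72 and 12.4 in the UNG arm. The inactive enzyme gave 2.85 before A and 5.79 before G in the Control arm. By strand, the 22 members with C on the coding strand and the 8 with G averaged 46.8 and 45.7 in the Ugi arm and 12.9 and 18.4 in the Control arm. In the 3 palindromes, which have the cytosine of either strand in the same 4 bases, Ugi and AID gave 39.5 and 50.1 at 354 and 355, 28.4 and 24.2 at 423 and 424, and 23.04 and 42.5 at 576 and 577, each a mean of 3. At 577, where a transition would make a stop codon, the values were 20.6, 26.96 and 79.9. At 576, where it would leave the codon's amino acid as it is, they were 5.63, 9.33 and 54.2. The 4 members whose codon would become a stop averaged 35.9 per 10000 with Ugi and AID. The 13 whose codon would keep its amino acid averaged 49.2, and the 13 whose codon would change it 47.1. Those 4 lie after the in-frame stop codon at 229, so the classes follow the codon and not a known effect on the protein. Members within 3 bases of a WRCY position averaged 52.3 with Ugi and AID (23.2, 22.9 and 110.9 by experiment), and the other 21 averaged 44.0 (22.8, 14.9 and 94.5), the first being higher in each experiment. The differences between these classes were not tested.

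C>G and G>C changes were rarer by far. With the empty vector they passed the test at 3 of 30 members, against 8.45% of all C:G positions, and were apart from the controls at 4 of 30, against 12.7%. The members averaged 1.91 per 10000 with AID against 0.927 with AID-E58Q. The 3 were 52, 238 and 354. Position 52, the first base of its codon, had 3.12, 2.57 and 2.17 against 0.44, 0.36 and 0.76 (log2 fold change 2.31, SE 0.60, adjusted p = 0.00841 by edgeR). Position 238 had 4.93, 3.01 and 7.21 against 1.705, 0.79 and 1.14 (log2 fold change 2.04, SE 0.63, adjusted p = 0.0332 by edgeR). Position 354 had 1.73, 4.71 and 2.37 against 0.72, 0.44 and 0.98 (log2 fold change 2.00, SE 0.64, adjusted p = 0.0414 by edgeR).

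At each of those 3 sites the groups were apart, with differences between the means of 2.101, 3.84 and 2.23 per 10000. None of the 3 passed when only the 2 Control groups entered the fit, without the AID-E58Q library of experiment 1 or 2, or without experiment 1. Without the AID library of experiment 3, the AID-E58Q library of experiment 3, or experiment 3, 1 passed. With the experiment as a block, 7 members passed, against 12.9% of C:G positions, adding 129, 375, 630 and 705.

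With Ugi, C>G/G>C rose at no member by edgeR or DESeq2 (0% of C:G positions, with 0 members reaching an unadjusted p of 0.05), and 1 of 30 was apart, against 4.46%. The member means were 0.939 with AID and 1.16 with AID-E58Q. The largest excess, which missed the test, was at position 594, with 1.94, 1.33 and 1.47 against 1.803, 0.31 and 1.01 (log2 fold change 0.62, SE 0.73, adjusted p = 0.998 by edgeR), and the next at 298, with 1.36, 0.76 and 1.36 against 0.56, 0.74 and 0.65 (log2 fold change 0.83, SE 0.67, adjusted p = 0.998 by edgeR).

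With UNG, C>G/G>C rose at 4 of 30 members, against 6.57% of C:G positions, and 4 of 30 were apart, against 8.92%. Position 238 had 10.6, 11.8 and 11.9 against 1.02, 0.43 and 1.16 (log2 fold change 3.64, SE 0.68, adjusted p = 1.58e-04 by edgeR). Its 3 AID values lay close together, and the call held in every alternative and every fit without a library or experiment, the highest adjusted p being 0.0455. Position 657, the C of a TACG core, had 12.1, 6.67 and 5.47 against 0.98, 1.92 and 0.63 (log2 fold change 2.98, SE 0.89, adjusted p = 0.0298 by edgeR).

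The other members that rose were the G and the C of the palindrome at 354 and 355. Position 354 had 2.73, 6.74 and 3.74 against 0.802, 0.46 and 1.13 (log2 fold change 2.37, SE 0.66, adjusted p = 0.0159 by edgeR). Position 355 had 4.29, 4.700 and 5.01 against 2.02, 0.23 and 0.81 (log2 fold change 2.19, SE 0.70, adjusted p = 0.0498 by edgeR). At 354, 355 and 657 the groups were apart, yet each call was lost in 7 or 8 of 9 fits without a library or experiment. The number of members called fell from 4 to 1 without the AID-E58Q library of experiment 2 or 3 or without any 1 experiment, and to 2 without the AID library of experiment 1 or 2 or the AID-E58Q library of experiment 1. Most other members held about as many C>G/G>C changes with AID as without, and the median log2 fold change over the members was 0.27, equal to the 0.27 over all C:G positions.

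Among the AID libraries, Ugi lowered C>G/G>C at 2 members, against 7.28% of C:G positions: 52 (log2 fold change -2.16, SE 0.59, adjusted p = 0.0152 by edgeR), from 3.12, 2.57 and 2.17 to 0.58, 0.53 and 0.65, and 238 (log2 fold change -2.09, SE 0.63, adjusted p = 0.0294 by edgeR), from 4.93, 3.01 and 7.21 to 1.43, 0.63 and 1.45. Neither passed when only the compared groups were fitted, without the Control AID library of experiment 1, without any 1 of the Ugi AID libraries, or without experiment 1 or 3. Without the Control AID library of experiment 3, 1 of them passed. Position 375, which missed the threshold, was lower with the experiment as a block (log2 fold change -1.71, edgeR adjusted p = 0.0148). At 52 the Ugi interaction passed too (log2 fold change -3.06, SE 0.84, adjusted p = 0.0321 by edgeR), 1 of 30 members against 2.82% of C:G positions. That call was lost with TMM factors and in 10 of 15 fits without a library or experiment: without any 1 experiment, without the Control or Ugi AID library or the Control AID-E58Q library of experiment 1, and without the Ugi AID, Control AID-E58Q or Ugi AID-E58Q library of experiment 2 or the Ugi AID-E58Q library of experiment 3.

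UNG against Control passed at 0 members by edgeR (0% of C:G positions), with 2 members under an unadjusted 0.05 and 1 called lower by DESeq2. The UNG interaction also passed at 0 (0% of C:G positions), with 2 under an unadjusted 0.05 and 1 called lower by DESeq2. With the block, 52 and 375 were lower with UNG than with Control (log2 fold changes -2.05 and -1.68, edgeR adjusted p = 0.00373 and 0.0396), 2 members against 2.35% of C:G positions. Position 52 also passed the blocked UNG interaction (-2.73, edgeR adjusted p = 0.0248), 1 member against 0.469%. At 52 the UNG AID libraries held 0.48, 0.54 and 0.94 against 0.98, 0.56 and 0.97 with AID-E58Q, and at 375 1.06, 0.71 and 1.43 against 2.15, 0.72 and 1.59. Positions 52 and 238, both C>G sites with the empty vector, thus differed in level with UNG, with means of 0.66 and 11.4 per 10000.

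C>A and G>T changes were counted apart. With the empty vector they rose at 4 of 30 members, against 4.93% of C:G positions, and 11 of 30 were apart from the controls, against 16.7%. The members averaged 3.25 per 10000 with AID against 0.858 with AID-E58Q. All but 1 of the 30 had a positive log2 fold change, and the median was 1.48 against 0.55 over all C:G positions. The members that passed were 64, 65, 129 and 418, each of them before G.

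Position 64 had 3.201, 5.37 and 15.9 against 0, 0 and 0.41 (log2 fold change 4.48, SE 1.30, adjusted p = 0.0363 by edgeR), from few calls. In experiments 1 and 2 those were 1 read of 3124 calls and 2 of 3724, against 0 of 2989 and 0 of 2711. A count of 3 in those controls would be 10.04 and 11.07 per 10000. Only the experiment 3 AID value thus lay above the limit of its control, which was 1.22. Position 129 had 3.08, 1.12 and 13.3 against 0.71, 0.68 and 0.98 (log2 fold change 2.86, SE 0.80, adjusted p = 0.0317 by edgeR). Position 418, a G on the coding strand, had 3.12, 2.82 and 13.6 against 0.47, 1.51 and 1.03 (log2 fold change 2.70, SE 0.76, adjusted p = 0.0317 by edgeR). At these 3 the groups were apart and experiment 3 gave most of the difference. At 64 the AID values of experiments 1 and 2 were above the controls by those few reads only. At position 65 the values were 0, 2.42 and 18.7 against 0, 0 and 0.34 (edgeR adjusted p = 0.0381), and its groups overlapped.

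None of the 4 passed with TMM factors or when only the compared groups were fitted. None passed without the AID library of experiment 3, without any 1 of the AID-E58Q libraries, or without experiment 1 or 3, while 7 members passed without the AID library of experiment 1. With at least 5000 calls required, 2 passed. With the experiment as a block, 8 passed, against 7.75% of C:G positions, adding 145, 388, 465 and 657.

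With Ugi, no member rose in C>A/G>T by edgeR or DESeq2 (0% of C:G positions, 0 members at an unadjusted p under 0.05), and 0 of 30 were apart, against 5.16%. The member means were 1.20 with AID and 1.17 with AID-E58Q. The largest excess was at 388, with 0.72, 5.84 and 1.04 against 1.75, 0.89 and 1.12 (log2 fold change 1.01, SE 0.82, adjusted p = 0.998 by edgeR), and the next at 64, with 2.81, 4.999 and 2.24 against 5.77, 0 and 0.897 (log2 fold change 1.05, SE 1.29, adjusted p = 0.998 by edgeR).

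With UNG, C>A/G>T rose at 5 of 30 members, against 3.99% of C:G positions, and 11 of 30 were apart, against 12.4%. Position 238 again stood highest, with 12.8, 8.04 and 34.8 against 2.65, 0.65 and 0.87 (log2 fold change 3.76, SE 0.89, adjusted p = 0.0122 by edgeR). Position 657 had 9.02, 2.38 and 14.3 against 1.95, 0.96 and 0.63 (log2 fold change 3.03, SE 0.92, adjusted p = 0.0436 by edgeR). Position 354 had 3.35, 8.57 and 12.5 against 1.002, 0.91 and 1.78 (log2 fold change 2.66, SE 0.76, adjusted p = 0.0310 by edgeR). At all 3 the groups were apart and experiment 3 was the highest.

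Position 355, on the other strand of the same palindrome, had 8.14, 5.998 and 14.7 against 1.62, 0.696 and 2.101 (log2 fold change 2.65, SE 0.74, adjusted p = 0.0280 by edgeR). Position 64 passed as well (edgeR adjusted p = 0.0310), although its AID libraries held 4.005, 0 and 13.1 and overlapped with controls that were all at 0. Those controls had 1125, 1412 and 28059 calls, at which a count of 3 would be 26.7, 21.2 and 1.07 per 10000, so only the experiment 3 AID value lay above the limit of its control and no fold is given. None of the 5 passed without the AID library of experiment 3, without any 1 of the AID-E58Q libraries, or without experiment 1 or 3. Without experiment 2, 3 members passed, with TMM factors 3, and with only the compared groups 1. Position 53, which missed the threshold, passed with the experiment as a block (log2 fold change 2.76, edgeR adjusted p = 0.0410). Positions 238, 354, 355 and 657 were the 4 members with a C>G call in the UNG arm as well.

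Across both kinds, 9 of the 30 members had a transversion call in the Control or UNG arm. For C>G/G>C, 2 of the 5 members called in either arm were called in both, and for C>A/G>T 1 of 8. Ugi against Control among AID libraries passed at 0 members for C>A/G>T by edgeR (0.235% of C:G positions, lower), although 11 members had an unadjusted p under 0.05 and the median log2 fold change was -1.33 against -0.33 over all. DESeq2 called 4 members lower. With the block 2 were lower, 465 and 657 (log2 fold changes -2.54 and -2.70, edgeR adjusted p = 0.0407 for both), against 1.17% of C:G positions. The Ugi interaction passed at 0 members (0.469% of C:G positions), 7 members were under an unadjusted 0.05, and DESeq2 called 2 lower. UNG against Control passed at 0 (0.235% of C:G positions), with 3 members under an unadjusted 0.05. The UNG interaction passed at 0 (0% of C:G positions), with 1 under an unadjusted 0.05, and DESeq2 called 0 in both.

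**Figure D4:**
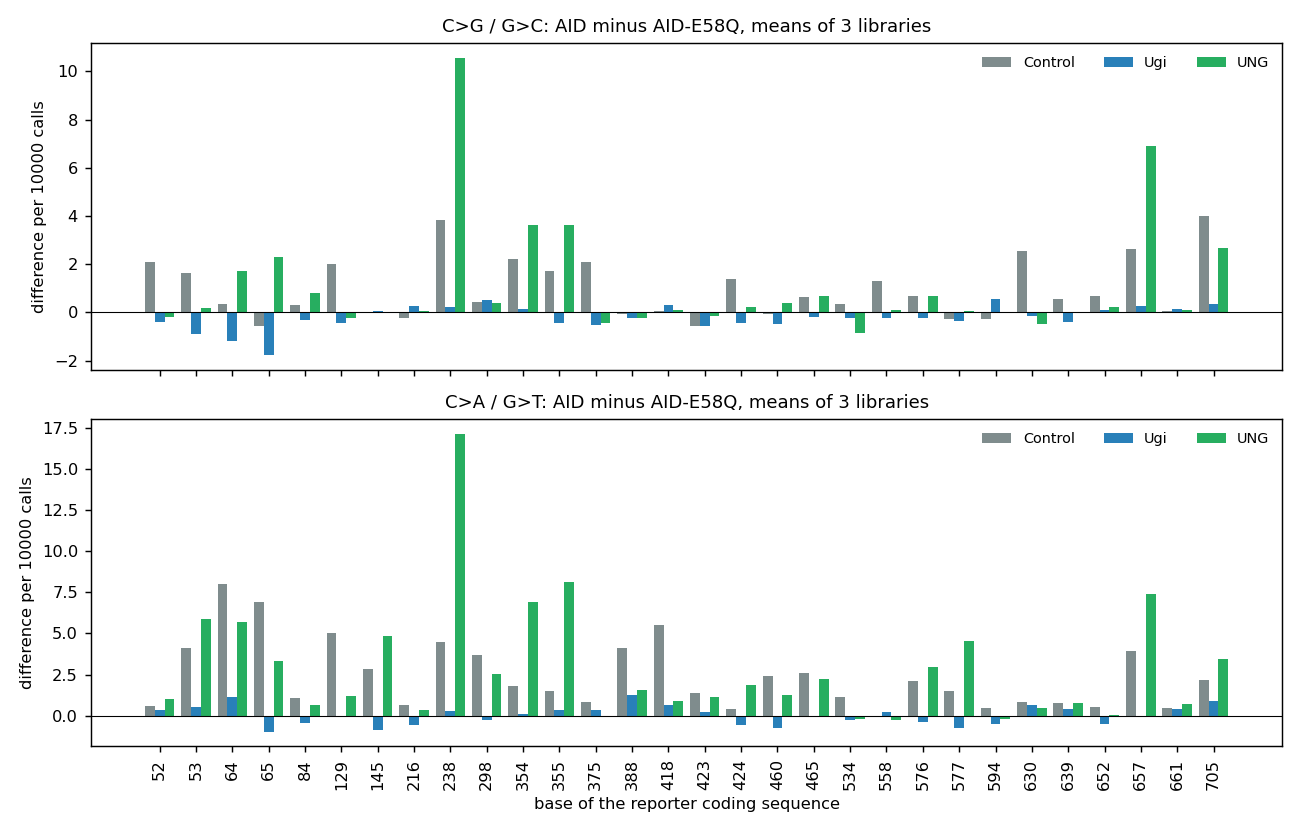
Difference between the means of 3 AID and 3 AID-E58Q libraries at each of the 30 positions, in changes per 10000 calls, for C>G/G>C above and C>A/G>T below. Bars are grey for Control, blue for Ugi and green for UNG. Position 238 with UNG is the tallest bar in both panels (10.6 and 17.1), and the Ugi bars lie near 0, with the lowest at position 65 (-1.77 for C>G/G>C).

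The kinds were set against each other through the excess of each AID library over the average of the 3 inactive-enzyme libraries in its arm, summed over the members. With the empty vector, transitions made up 77.6%, 74.2% and 73.8% of the excess in experiments 1 to 3, C>G/G>C 10.03%, 6.74% and 6.28%, and C>A/G>T 12.4%, 19.1% and 19.95%. With UNG the shares were 64.5%, 42.9% and 58.5% for transitions, 11.4%, 18.05% and 10.3% for C>G/G>C, and 24.1%, 39.1% and 31.2% for C>A/G>T. With Ugi transitions were 98.2%, 106% and 100.2% of the excess, the shares over 100% coming from transversions below the controls. C>A/G>T outweighed C>G/G>C at the purine-followed cores in each experiment of the Control and UNG arms. Every member weighed the same in these sums, so single reads at 64, 65 and 705, which had few calls, count heavily. With UNG and AID-E58Q, experiment 1 held 43.1 transitions at 65 and 9.09 C>G/G>C changes at 705 per 10000. At 65 in experiment 2, the C>A/G>T value of 6.69 was 1 read of 1494 calls. How far such values move the shares was not tested. Without position 238, a choice made after its values were seen, C>G/G>C made up 9.39%, 7.08% and 9.96% of the UNG excess and C>A/G>T 23.4%, 56.8% and 30.4%. The C>A/G>T share was thus higher than with 238 in experiment 2, which had the smallest excess, and slightly lower in the other experiments.

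At the 36 WRCY positions and their mirrors, the order of the transversions was the opposite. There C>G/G>C made up 30.6%, 32.3% and 24.9% of the Control excess and C>A/G>T 6.73%, 6.89% and 12.7%. With UNG the shares were 55.6%, 58.4% and 51.9% for C>G/G>C and 18.3%, 10.2% and 12.6% for C>A/G>T. The C>G shares of the purine-followed cores and of the WRCY positions did not overlap between any experiments of an arm, but both classes come from the same libraries and the difference was not tested. Of the 36, 13 are bases of AGCT sites. At the other 23, C>G/G>C averaged 20.3% and C>A/G>T 18.7% in the Control arm and 29.9% and 26.6% in the UNG arm. Their C>G/G>C shares lay between those of the purine-followed cores and of all 36, and their C>A/G>T share in the Control arm lay above both.

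**Figure D5:**
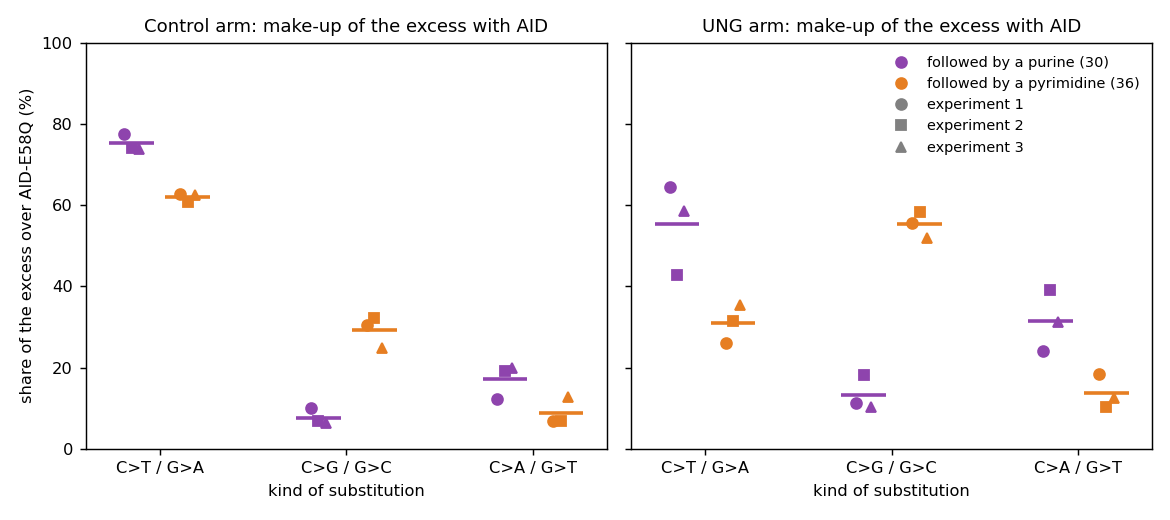
Share of each kind of substitution in the excess of AID over AID-E58Q, in percent, with the empty vector (left) and with UNG (right). Points are experiments and bars are means of 3, purple for the 30 purine-followed cores and orange for the 36 pyrimidine-followed ones. The C>G/G>C share averages 7.68% and 13.2% at the first and 29.3% and 55.3% at the second, and the C>A/G>T share 17.1% and 31.5% against 8.76% and 13.7%.

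In level, the WRCY positions averaged 38.5 transitions per 10000 with AID in the Control arm, 136 with Ugi (66.7, 53.6 and 289 by experiment) and 18.96 with UNG, against 14.4, 46.5 and 11.1 at the purine-followed cores. The 23 outside AGCT held 17.9, 85.95 and 11.05. The 139 SYC positions, a motif that AID disfavours (S is C or G), held 2.64, 2.65 and 3.09, next to 2.30, 1.69 and 3.05 with AID-E58Q. The ratio of Ugi to Control in transitions was 1.79, 2.16 and 4.44 at the purine-followed cores and 1.92, 3.06 and 4.58 at the WRCY positions in experiments 1 to 3. The ratio of UNG to Control was 0.918, 0.800 and 0.674 against 0.366, 0.601 and 0.533. For C>G/G>C the UNG ratio was 1.07, 1.18 and 1.11 against 1.26, 1.66 and 1.83. All these ratios are of AID frequencies from which the AID-E58Q background was not subtracted. For transitions at the purine-followed cores, that background was higher with UNG than with Control in each experiment. Its part in the ratios was not tested, nor were these differences between the classes.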

How the data were processed

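The deposited sheets give, per library and reporter position, the reference base and the read counts of each base. Per the file headers, base calls passed a quality limit above 20, and per the submitters' processing notes CASAVA 1.7, Novoalign 2.07.04 and SAMtools 0.1.11 were used. Those counts of the authors were used unchanged. Transitions (C>T/G>A, and A>G/T>C at A:T pairs), C>G/G>C and C>A/G>T counts were tested apart with edgeR 4.0.16 (R 4.3.3). Its quasi-likelihood test ran on all 18 libraries in 6 groups, with log calls at each position as offset. Benjamini-Hochberg adjustment was over all positions, or all C:G positions for transversions, with at least 1000 calls in every library (threshold 0.05). Per arm and kind of substitution, up to 4 positions were named that passed with groups apart, by largest fold change, and where none passed the 2 with the largest mean excess. Up to 3 a direction were named for the other comparisons. Positions named beyond this were chosen after their values were seen.

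The experiment number in the titles was taken as a shared experiment, as the labels do not state what it marks. Over 45 pairs of same-numbered libraries, deviations from the group means correlated at -0.0948 to 0.464 (median 0.126), and 26 pairs lay above 0.1. Pairs of experiment 3 ran from 0.208 to 0.464, and those of experiments 1 and 2 from -0.0948 to 0.172. Calls given without mention of a block are from the fit by group only, which leaves this pairing out. The fit with the number as a replicate block is given where it changes a call or moves a count by over 1.5 times. Alternatives were TMM factors, DESeq2 1.42.0, the compared groups alone, at least 5000 calls, at least 50 substitutions, and leaving out each library or experiment. The members and lists were chosen with earlier results of these data known.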

Additional observations from a re-analysis of the deposited data

Results flagged for a closer look

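At position 52, the C of a TGCG core, the AID effect on C>G/G>C passed the test of a difference between the Ugi and the Control arm (interaction log2 difference -3.06, adjusted p = 0.0321 by edgeR). That call was lost with TMM factors, with experiment 1 left out and the replicate block kept, and in 10 of 15 fits without a library or experiment, with adjusted p-values of up to 0.553 (edgeR). The excess of AID over AID-E58Q there was 2.10 per 10000 calls with the empty vector and -0.399 with Ugi, the Control arm being above its inactive enzyme in each experiment and the Ugi arm below it. With UNG the excess was -0.178, also below in each experiment. The split of signs was not tested in itself, while the UNG interaction at this position missed the threshold (log2 difference -2.66, adjusted p = 0.502 by edgeR) and passed with the replicate block (-2.73, adjusted p = 0.0248 by edgeR). In 9 libraries the highest reads at any position were 499049 to 499939, so the calls at position 52 may be capped. The part of this in the result was not tested.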

How the results depend on the processing

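No position that passed, or was named by the rule above, changed sign in an alternative where it passed in either fit. Counts of members called were followed in 1 direction each, so that statement does not cover them. With the replicate block, members called in transitions went from 1 to 13 (Control), from 0 to 3 (UNG), from 0 to 14 (Ugi over Control) and from 0 to 1 (UNG over Control). In C>G/G>C they went from 3 to 7 (Control), and in C>A/G>T from 4 to 8 (Control) and from 0 to 2 (Ugi over Control). The block also gave 2 lower C>G/G>C calls for UNG over Control and 1 for its interaction, and moved no other count by over 1.5 times. TMM factors gave 8 (Control), 2 (UNG), 3 (Ugi over Control) and 1 (UNG over Control) in transitions, 0 for the C>G/G>C Ugi interaction, and 0 (Control) and 3 (UNG) in C>A/G>T. DESeq2 gave 14, 2 and 10 (Control, UNG, Ugi over Control) in transitions, 2 for the C>G/G>C Ugi interaction, and 7 (Control), 4 (Ugi over Control) and 2 (Ugi interaction) in C>A/G>T. Fitting only the compared groups gave 5, 12 and 1 (Control, Ugi, UNG) in transitions, 0 (Control) and 0 (Ugi over Control) in C>G/G>C, and 0 (Control) and 1 (UNG) in C>A/G>T. At least 5000 calls gave 2 in C>A/G>T (Control), as 64 and 65 were no longer tested. With experiment 1 left out and the replicate block kept, a setting added after seeing the data, the counts were 3 (Control), 2 (UNG) and 9 (Ugi over Control) in transitions, 0 for the C>G/G>C Ugi interaction, and 2 (Control) and 0 (UNG) in C>A/G>T. Without 1 library or experiment, the transition counts ran from 0 to 4 (Control), 0 to 28 (Ugi), 0 to 2 (UNG), 0 to 11 (Ugi over Control) and 0 to 1 (UNG over Control). The C>G/G>C counts ran from 0 to 4 (Control), 1 to 3 (UNG), 0 to 2 (Ugi over Control) and 0 to 1 (Ugi interaction), and the C>A/G>T counts from 0 to 7 (Control), 0 to 6 (UNG) and 0 to 1 (Ugi over Control). Apart from the smaller fits' fewer libraries or positions, the cause of these moves was not tested. The median half-width of the counting interval for C>G/G>C, 0.783 per 10000, is near the levels of the inactive enzyme.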
